A study of Rattus norvegicus with 6 samples.

Results

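The immediate early genes followed here were 10 genes taken by name: Fos, Fosb, Jun, Junb, Egr1, Atf3, Ier3, Dusp1, Nr4a1 and Myc. The accessions of 13 probes named them, and all 10 were among the 30229 genes tested. Of the 13 probes 12 passed the detection filter: the scanner had to mark the spot as well above background on every array of the monuron or of the corn oil group. Immediate early genes are switched on within minutes of a growth factor, stress or injury signal without new protein being made, and their mRNAs are short-lived. Most encode transcription factors, among them the FOS and JUN proteins that pair to form AP-1, while others encode proteins that damp the signalling cascade or protect the cell. In kidney they are known as early responders to tubule injury and to mitogens.

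The rats were male Sprague-Dawley (Crl:CD(SD)) animals bought at 5 weeks of age. Of the 6 animals, 3 received the phenylurea herbicide monuron at 200 mg/kg/day for 4 weeks and 3 received corn oil, the vehicle, for the same 4 weeks. RNA of the renal cortex was labelled with Cy3 and hybridised to 1-colour Agilent arrays, 1 array per rat. The hours between the last dose and tissue collection, which matter for mRNAs of this kind, are not given in the sources used here. Levels are spot signals divided by the array's own 75th percentile. They can be set against each other between arrays for a given probe, but not between probes. The sums over cell type markers given below are therefore weighted towards the brightest probes and serve only to compare arrays.

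The arrays of the groups lay on separate slides that were scanned separately, so treatment, slide and scan cannot be told apart in any value. Corn oil replicate 2 had the fewest probes well above background (60.9%), against 65.9% to 70.4% on the other arrays. As a check of the labelled tissue, all 10 markers of the proximal tubule, the main cell of the cortex, and all 6 podocyte markers were measured. The proximal tubule markers summed to 2121 to 2237 with monuron and 2357 to 2554 with corn oil, without overlap. All 10 had a log2 fold change below 0, 4 of them with an unadjusted p under 0.05 and 0 called by limma. Over all genes 55.3% were above 0, 6.73% were lower at that unadjusted p and 0.414% were called lower. The podocyte markers summed to 36.4 to 37.4 with monuron and 38.3 to 46.2 with corn oil, also without overlap, and 0 were called. Of these 6 markers 1 had a log2 fold change above 0 and 5 below. Of single genes, 10.3% of all tested had every monuron array below every corn oil array. The part of these shifts in the results was not tested. Of 6 adrenal cortex markers 2 were measured, with Cyp11b1, Cyp11b2, Star and Mc2r below the filter. Summed over the 6 measured of 8 erythroid markers the level was 1518 to 1630 with monuron and 646 to 888 with corn oil. Of these 6 markers 5 were called higher, against 0.949% of all genes. The 9 measured of 10 hepatocyte markers summed to 18.2 to 41.5 with monuron and 12.8 to 26.3 with corn oil, which overlap. Of these 9 markers 8 had a log2 fold change above 0 and 1 below (median 1.05), with 0 called. At an unadjusted p under 0.05 1 was higher and 0 lower, against 10.9% and 6.73% of all genes. The 8 measured of 12 leukocyte markers overlapped between the groups in their sum, at 56.0 to 72.6 with monuron and 58.5 to 99.2 with corn oil, most of it from Lyz2. Within that list 2 of the 8 had a log2 fold change above 0 and 6 below, with 0 called. S100a8 and S100a9 were above all corn oil arrays with monuron (log2 fold changes 1.31 and 1.15). Of the 6 lower genes, Cd4 and Cd8a were below all corn oil arrays (-0.48 and -0.63), while in the rest the groups overlapped. Over all genes 15.4% lay above all corn oil arrays in this way and 10.3% below. In whole cortex, fewer cells of a type and less RNA per cell cannot be told apart.

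After 4 weeks of monuron none of the immediate early genes passed the test across all genes, and Myc came nearest. Among the 10 genes 0 were called higher and 0 lower by limma, a linear model fitted across all genes, at an adjusted p of 0.05, where 0.949% of all tested genes were called higher and 0.414% lower. At an unadjusted p under 0.05 there was 1 higher gene, Myc, and 0 lower, against 10.9% and 6.73% of all genes. A log2 fold change above 0 was found in 8 of 10, with a background of 55.3%. The median log2 fold change was 0.26, and 0.02 over all genes tested. Fos counts in both, although its probe passed the detection filter through the monuron group alone. Where detection on all 6 arrays was required, 7 of the 9 members tested were above 0. All monuron arrays lay above all corn oil arrays in 2 genes, Fosb and Myc (15.4% of all genes), and below them in 0 (10.3% of all genes). Dusp1 and Nr4a1 were the pair with values below 0. The values depend on the scaling. With quantile normalization, and also with no scaling, 0 members were called higher, 0 lower and 8 were above 0. Scaled on spike-in controls instead, the median of all genes was -0.49 and 67.7% of them were called lower. Under that scaling Myc was called higher, Dusp1 and Nr4a1 were called lower, and Egr1 was the other member above 0.

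**Figure D1:**
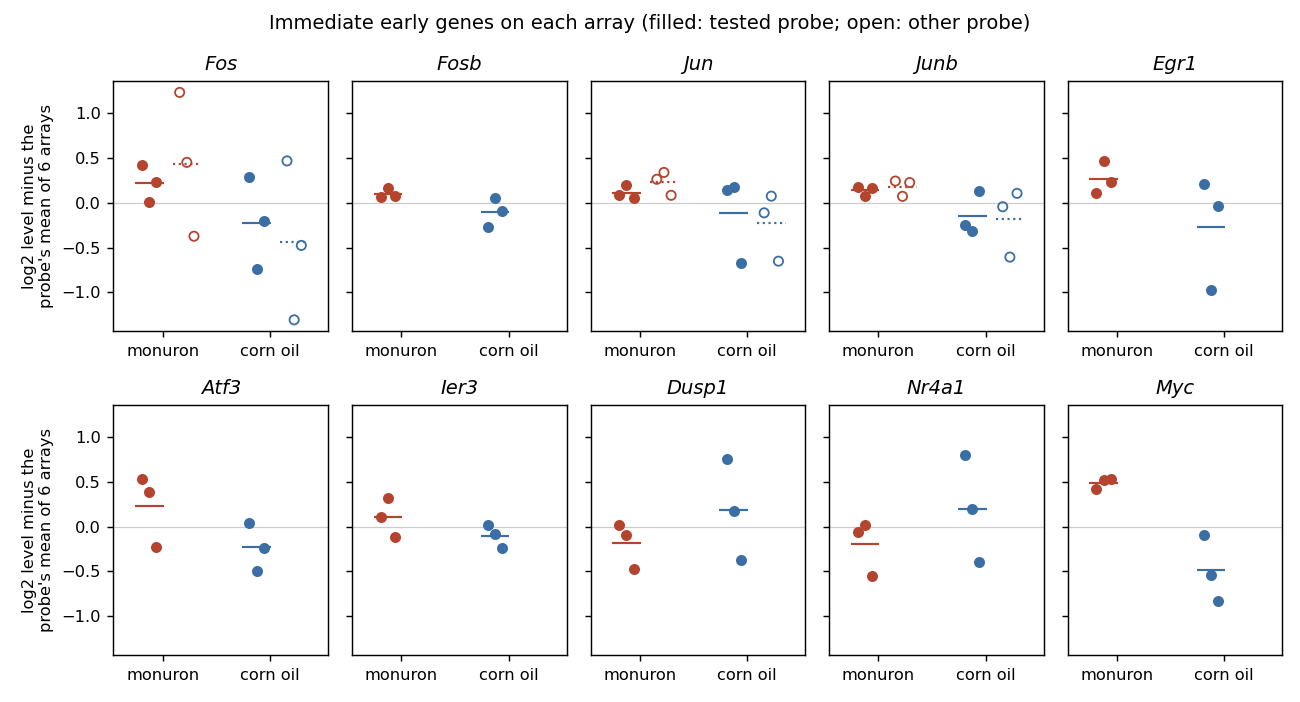
Level of each immediate early gene on each array, as log2 level minus the probe's mean over the 6 arrays. Points are arrays, short lines are group means, filled points are the probe tested for the gene and open points the other probe of Fos, Jun and Junb. The Myc points of monuron lie together above all corn oil points, whereas in the other panels the groups overlap or, for Fosb and the open points of Jun, are barely apart.

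Myc encodes a helix-loop-helix factor that drives genes of growth and ribosome production. Its level was 1.42, 1.52 and 1.53 on monuron replicates 1 to 3, against 0.997, 0.729 and 0.595 on corn oil replicates 1 to 3. The groups did not overlap, and the monuron arrays were close together while the corn oil arrays ranged 1.67-fold. The means were 1.49 ± 0.060 with monuron and 0.774 ± 0.204 with corn oil (SD, n = 3 each), and the fold from the difference of the log2 means was 1.97, with a 95% interval of 1.43 to 2.73. With an unadjusted p = 0.00224 and an adjusted p = 0.0857, Myc missed the threshold over all genes. The call was gained without corn oil replicate 1, the highest of its group (log2 fold change 1.18, adjusted p = 0.0489). Of the 18 alternative ways of processing, 4 including that one called Myc, and the adjusted p lay between 0.0318 and 0.226. The erythroid markers were higher on the same arrays, and their part in the Myc difference was not tested.

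**Figure D2:**
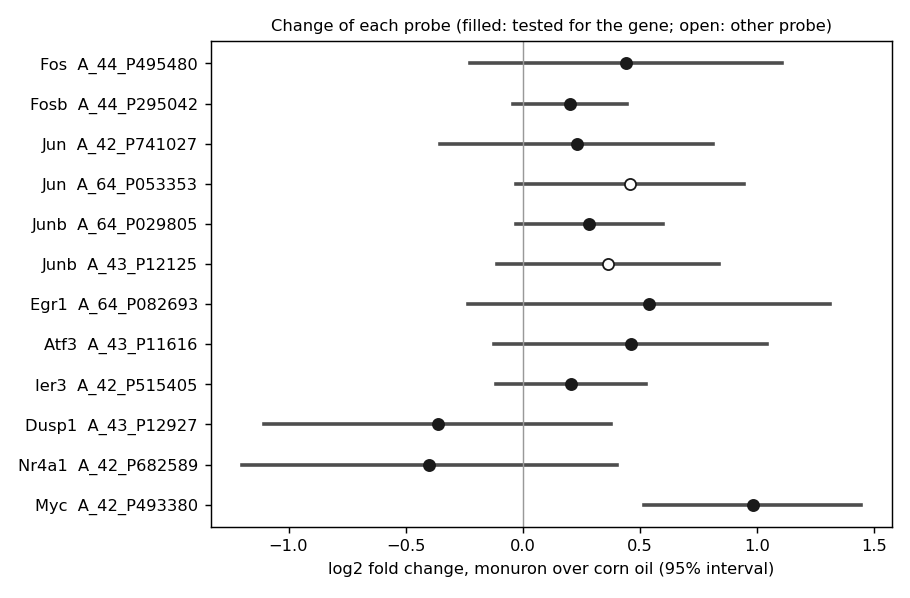
Log2 fold change of monuron over corn oil for the 12 probes that passed the detection filter, in the fit in which each probe was tested on its own. Points are estimates and lines 95% intervals; the interval of Myc runs from 0.52 to 1.44 and that of each other probe includes 0.

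The FOS and JUN families supply the partners in AP-1. Fos was dim, at 0.0844, 0.0633 and 0.0743 on monuron replicates 1 to 3, against 0.0770, 0.0377 and 0.0547 on corn oil replicates 1 to 3. On 1 corn oil array the spot was not marked as well above background, so the probe passed the detection filter through the monuron group alone. The size of its difference is therefore uncertain. The groups overlapped, since corn oil replicate 1 was higher than 2 monuron arrays, and the 1.36-fold difference, with an interval of 0.854 to 2.16, was not called (adjusted p = 0.455). The log2 fold change of Fos was 0.44, but 0.18 without corn oil replicate 2, 0.69 without corn oil replicate 1 and 0.17 after normexp background correction with quantile normalization. That correction added an offset of 50 to each signal, which by itself draws the log2 fold change of a dim probe towards 0. The other Fos probe failed the detection filter, with a marked signal on 2 monuron arrays and 1 corn oil array. Its level ran from 0.0173 to 0.0526 with monuron and from 0.00905 to 0.0310 with corn oil, which again overlap.

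Fosb encodes a partner of JUN that can replace FOS. Its level was 0.697, 0.744 and 0.702 on the monuron arrays and 0.552, 0.691 and 0.626 on the corn oil arrays. Every monuron array was above every corn oil array, but the gap between monuron replicate 1 and corn oil replicate 2 was narrow. The difference was 1.15-fold (0.972 to 1.36) and not called (adjusted p = 0.357). Without corn oil replicate 1 the log2 fold change was 0.12 in place of 0.20.

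Jun, the core AP-1 subunit, gave 11.3, 12.1 and 11.1 on the monuron arrays, against 11.7, 12.0 and 6.68 on the corn oil arrays with the tested probe. All arrays except corn oil replicate 3 lay close together, and without that array the log2 fold change was -0.05 ± 0.08 in place of 0.23 ± 0.24. Without corn oil replicates 1 and 2 in turn it was 0.36 and 0.37. The other Jun probe gave 3.99, 4.21 and 3.53 with monuron, against 3.08, 3.51 and 2.12 with corn oil. There the groups did not overlap, although monuron replicate 3 and corn oil replicate 2 were nearly level. Its log2 fold change of 0.46 ± 0.20 was not called either (adjusted p = 0.309). Corn oil replicate 3 was the lowest array on both Jun probes.

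Junb, a JUN protein that can restrain growth, gave 7.17, 6.69 and 7.09 on the monuron arrays and 5.35, 5.10 and 6.91 on the corn oil arrays. Corn oil replicate 3 reached into the monuron range here, the opposite of its place in Jun. The difference was 1.22-fold (0.979 to 1.51, adjusted p = 0.324). The other Junb probe stood at 0.36 ± 0.19 on the log2 scale, also short of the threshold (adjusted p = 0.391). Atf3, a stress-induced factor that dimerises with JUN proteins, gave 0.869, 0.790 and 0.515 with monuron and 0.621, 0.428 and 0.511 with corn oil. Monuron replicates 1 and 2 were above all corn oil arrays, and monuron replicate 3 was within their range. The 1.38-fold difference of Atf3 (0.917 to 2.06) was not called (adjusted p = 0.380).

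Egr1 encodes a zinc finger factor induced by growth factors through serum response factor, which binds the CArG box, CC and GG around a run of A or T. The 250 bases before its start are shown because they carry this element in duplicate, on the plus strand of chr18:26736828-26737077 (RefSeq, GRCr8), with CArG boxes in capitals:
Egr1: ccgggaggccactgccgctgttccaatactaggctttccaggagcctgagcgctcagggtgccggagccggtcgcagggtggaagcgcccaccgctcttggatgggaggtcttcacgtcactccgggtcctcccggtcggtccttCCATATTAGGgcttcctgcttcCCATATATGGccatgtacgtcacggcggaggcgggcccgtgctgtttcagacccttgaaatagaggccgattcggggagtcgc

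The element was searched on both strands. It was found in 501 of the 33469 promoters of the table, all of 250 bases, and 2 or more times in 0.0209% of the promoters. Among the 5 members with an entry (Dusp1, Egr1, Fosb, Junb and Nr4a1) Egr1 alone held it. Egr1 levels were 0.119, 0.152 and 0.129 with monuron, against 0.127, 0.0560 and 0.107 with corn oil. Corn oil replicate 2, the array with the fewest detected probes, was by far the lowest, and corn oil replicate 1 lay within the monuron range. The difference was 1.45-fold (0.848 to 2.49) and missed the threshold (adjusted p = 0.433). Without corn oil replicate 2 the log2 fold change was 0.18 in place of 0.54, and after normexp with quantile normalization it was 0.32. The probe is dim, so the normexp offset of 50 by itself lowers that value. Whether the detection of that array plays a part was not tested.

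The remaining members act on signalling and survival. Ier3, a small survival protein induced by stress and NF-kB, gave 2.42, 2.79 and 2.08 with monuron, against 2.27, 2.12 and 1.91 with corn oil. The groups overlapped and the difference was 1.15-fold (0.922 to 1.44, adjusted p = 0.470). The log2 fold change was 0.21, but 0.10 without monuron replicate 2, 0.31 without monuron replicate 3 and 0.09 after normexp with quantile normalization.

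Dusp1 encodes the phosphatase that switches off p38 and JNK, and Nr4a1 an orphan nuclear receptor. Dusp1 gave 0.187, 0.173 and 0.133 on the monuron arrays and 0.311, 0.207 and 0.142 on the corn oil arrays. Nr4a1 gave 1.77, 1.85 and 1.25 on the monuron arrays and 3.20, 2.10 and 1.40 on the corn oil arrays. In both genes corn oil replicate 1 was the highest of all arrays and monuron replicate 3 the lowest, with overlapping groups. Neither was called (limma), with log2 fold changes of -0.36 ± 0.30 (adjusted p = 0.579) for Dusp1 and -0.40 ± 0.33 (adjusted p = 0.572) for Nr4a1. Single arrays decided these values. Without corn oil replicate 1 they were -0.08 for Dusp1 and -0.10 for Nr4a1, without corn oil replicate 3 they were -0.64 and -0.70, and without monuron replicate 3 they were -0.22 for both genes. Within the corn oil group the highest array exceeded the lowest 2.19-fold for Dusp1 and 2.29-fold for Nr4a1, against 1.41-fold and 1.48-fold within the monuron group.

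Over the 6 arrays the log2 levels of Dusp1 and Nr4a1 correlated with r = 0.99 and rho = 0.94. Pearson's p was 0.00278 and Spearman's 0.0167 in exact two-sided permutation tests over all 720 pairings. It was the closest of the 45 pairs of members, and adjusted over these pairs the p-values were 0.125 and 0.661. With 720 pairings a single p cannot fall below 0.00139, so that no pair standing alone could pass the adjustment. Without the 2 arrays farthest from the median of Dusp1 r was 0.95, and over deviations from the group means it was 0.99. By such deviations it was not alone, since Jun with Junb and Fos with Fosb both had r = -0.99. The next closest pair was Fos with Egr1 (r = 0.83, exact permutation p = 0.0764, adjusted p = 0.557; rho = 0.43, exact p = 0.419, adjusted p = 0.699). That relation rests on the 2 arrays farthest from the median of Fos, without which r was -0.99. Both genes had dim probes with their lowest values on corn oil replicate 2. Over all pairs 33 of 45 had r above 0, with a median of 0.32, which includes the difference between the groups. By deviations from the group means 30 of 45 were above 0, with a median of 0.23. Pairs of other genes were not taken as a background.

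**Figure D3:**
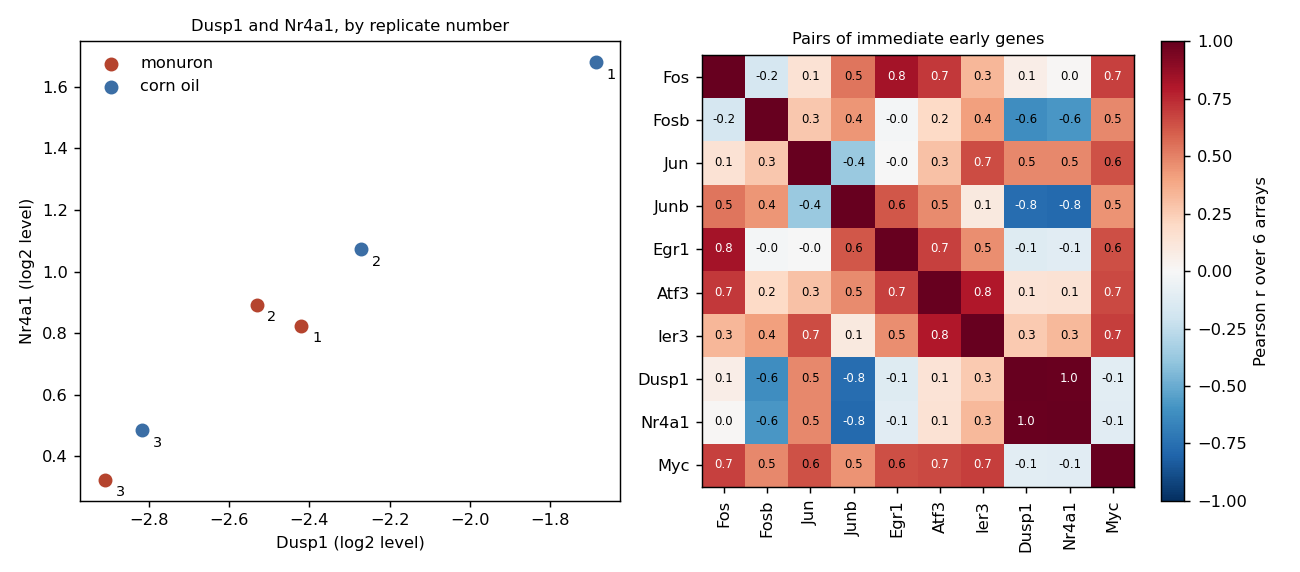
Left, log2 level of Nr4a1 against that of Dusp1, with 1 point per array labelled by its replicate number. Right, Pearson r over the 6 arrays for all 45 pairs of immediate early genes; the Dusp1 and Nr4a1 points fall along a line whichever group they belong to.

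The promoters of this pair are shown since both genes are known targets of CREB, which binds the cAMP response element TGACGTCA and its short form TGACG. They are the 250 bases before the start from RefSeq (GRCr8), both on the plus strand, at chr10:17184603-17184852 for Dusp1 and chr7:134259888-134260137 for Nr4a1. Short forms on either strand (TGACG, or CGTCA as read here) are in capitals:
Dusp1: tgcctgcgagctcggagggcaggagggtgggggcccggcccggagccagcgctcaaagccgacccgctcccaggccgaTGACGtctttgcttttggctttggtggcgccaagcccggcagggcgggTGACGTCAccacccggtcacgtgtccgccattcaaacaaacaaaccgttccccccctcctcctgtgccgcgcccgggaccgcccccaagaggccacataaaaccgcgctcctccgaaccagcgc
Nr4a1: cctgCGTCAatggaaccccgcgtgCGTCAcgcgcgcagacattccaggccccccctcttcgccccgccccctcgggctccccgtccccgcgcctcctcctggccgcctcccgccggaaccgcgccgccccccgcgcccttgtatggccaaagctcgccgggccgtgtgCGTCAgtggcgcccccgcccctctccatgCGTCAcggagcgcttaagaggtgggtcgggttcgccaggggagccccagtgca

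Dusp1 held 3 matches of the short form, 2 of them the overlapping arms of a full element 124 to 117 bases before the start. Nr4a1 held 4, all on the opposite strand, and no full element. A full element counts as 2 short forms. At least 1 short form was present in 18.2% of the 33469 promoters, 2 or more in 3.98%, 4 or more in 0.173% and the full element in 1.59%. Egr1 held 2 short forms, Junb 1 and Fosb 0. A match is a string in this window and not a measured binding site.

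The spread between animals was wider in corn oil for 8 of the 10 genes, the exceptions being Atf3 and Ier3, and for 53.4% of all genes. The median SD of the log2 level was 0.19 with monuron and 0.43 with corn oil over the 10 genes. Over all genes it was 0.12 with monuron and 0.13 with corn oil. These are counts over genes measured on the same arrays and were not tested.

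By pattern over the 6 arrays, the genes most like the mean of the 10 were Mpzl3 (r = 0.99), 2610318N02Rikl (0.98), Or52e2 (0.97), Adamts10 (0.97) and Kcnh2 (0.96). Each was well above background on 4 or 5 arrays only. Most like Fos were Klk1c9 (r = 0.996), Mog (0.98), Rcn2 (0.98), Gsdmdl1 (0.98) and Or1e18 (0.97). Of these, Klk1c9 and Rcn2 were detected on all 6 arrays. The likeness was taken over 2325 genes that share these 6 arrays. The mean of the 10 genes was lowest on corn oil replicates 2 and 3, and Fos on corn oil replicate 2. Within the pathway lists, and chosen after its values were seen, Klf2, a factor of quiescent endothelium, was closest to the mean of Dusp1 and Nr4a1 (r = 0.95 among 47 genes). Zfp36, which speeds the decay of short-lived mRNAs, followed (0.89), then Cebpd and Nfkbia (0.84 each) and Rgs1 (0.82). Zfp36 stood at 0.119, 0.220 and 0.120 with monuron and 0.355, 0.219 and 0.111 with corn oil, so that corn oil replicate 1 was again the highest array.

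Around the 10 genes, 164 of 195 listed genes of the immediate early response and its signalling were measured. Of these, 4 rose and 2 fell by limma, where the shares over all genes were 0.949% and 0.414%, and their median log2 fold change was 0.04. The 4 that rose were Areg, an EGF receptor ligand (log2 fold change 2.49 ± 0.36, adjusted p = 0.0454), Bcl6, a transcriptional repressor (1.96 ± 0.17, adjusted p = 0.0117), Plk2, a polo-like kinase (1.66 ± 0.19, adjusted p = 0.0255), and Pim1, a survival kinase (0.75 ± 0.11, adjusted p = 0.0498). Nfil3, a bZIP repressor, fell by 0.64 ± 0.08 on the log2 scale (adjusted p = 0.0330), and Map2k6, which activates p38, fell by 0.47 ± 0.07 (adjusted p = 0.0489). By list, 1 of 21 other immediate early transcription factors rose and 1 fell (median 0.11), and 3 of 39 other effectors rose and 0 fell (median 0.04).

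Bcl6, the one transcription factor that rose, had the smallest adjusted p of the 6. Its level was 8.19, 11.7 and 10.3 on the monuron arrays and 2.28, 2.99 and 2.45 on the corn oil arrays, with no overlap, a 3.90-fold difference (2.93 to 5.18). Another Bcl6 probe gave a log2 difference of 1.54. The Bcl6 call was kept under 12 of 17 alternatives (adjusted p up to 0.0689), that of Plk2 under 10, Areg 9, Nfil3 8, Map2k6 7 and Pim1 3. Pim1 was dim, at 0.0937 to 0.104 with monuron and 0.0524 to 0.0680 with corn oil. Its log2 fold change was 0.25 after normexp with quantile normalization (limma adjusted p = 0.140) and 0.24 scaled on spike-in controls (adjusted p = 0.177). The normexp offset of 50 by itself draws the value of so dim a probe towards 0. Areg missed the threshold without any 1 of the 6 arrays, as did Nfil3, Map2k6 and Pim1, with adjusted p up to 0.155 for Areg, 0.132 for Nfil3, 0.162 for Map2k6 and 0.199 for Pim1. Plk2 did so without each array except corn oil replicate 3 (up to 0.116). For Bcl6 the adjusted p was 0.0576 and 0.0689 without monuron replicates 2 and 3, and 0.0505 and 0.0510 without corn oil replicates 1 and 3.

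**Figure D4:**
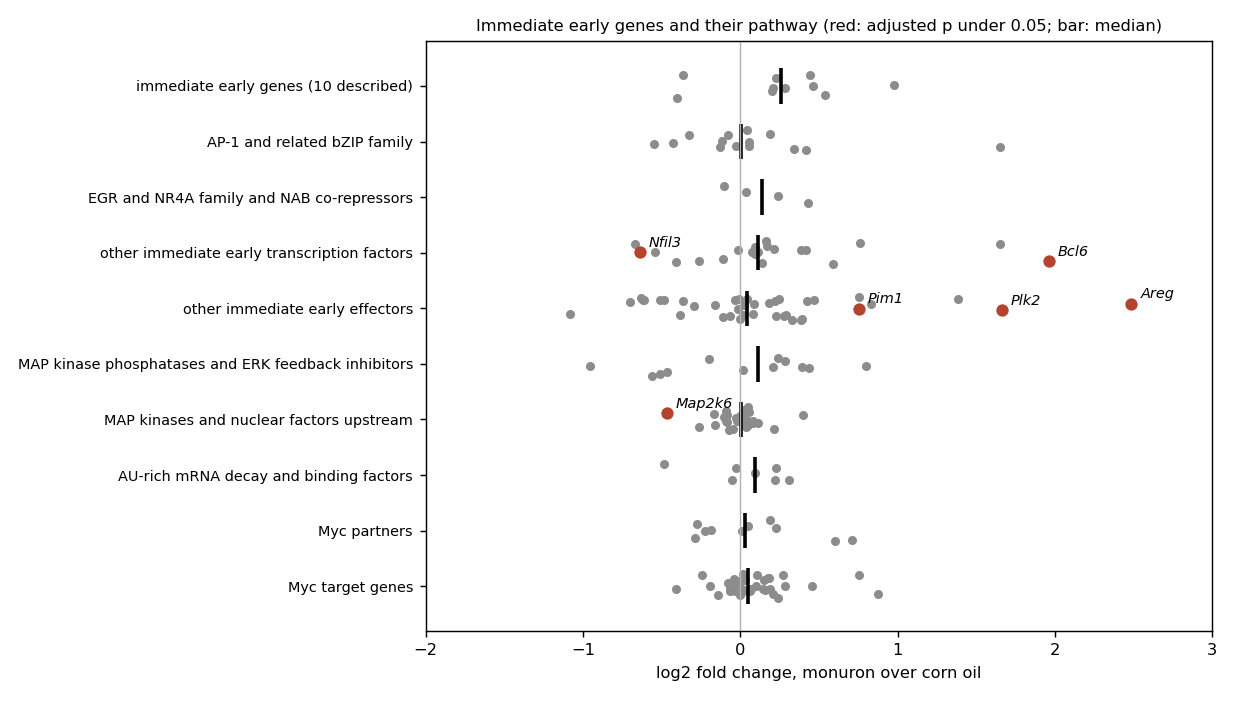
Log2 fold change of monuron over corn oil for the 10 immediate early genes and the other genes of the response, by list. Each point is a gene, red points have an adjusted p under 0.05, black bars are list medians; the red points are Areg, Bcl6, Plk2, Pim1, Nfil3 and Map2k6, and a few genes appear in more than 1 list.

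The list of AP-1 and related bZIP genes, which does not hold Nfil3, had no call. Of its 14 measured genes 0 rose and 0 fell by limma (median 0.00), with 3 higher and 0 lower at an unadjusted p under 0.05. The shares of all genes were 0.949% and 0.414% for the calls, and 10.9% higher and 6.73% lower at that unadjusted p. Jund stood at 0.34 ± 0.07 on the log2 scale (adjusted p = 0.0973), with non-overlapping groups on that probe. Of its 3 probes, another gave 0.27, also without overlap, and the remaining probe gave -0.27 with overlapping groups. Fosl2 stood at 0.42 ± 0.15 (adjusted p = 0.245), its other probes at 0.25 and 0.14. Maff, a small MAF protein and one of those 3, was dim, at 0.0552, 0.0618 and 0.0754 with monuron and 0.0410, 0.0101 and 0.0200 with corn oil. The scanner marked it as detected on only 1 corn oil array, and it passed the filter through the monuron group, so no size is given for its difference. Maff counts among the 3 higher genes only because it passed in that way. Fosl1, Egr2, Egr4 and Nr4a3 had probes that did not pass the detection filter. Of the 4 measured relatives of EGR and NR4A and their NAB co-repressors 0 were called, with 1 higher at an unadjusted p under 0.05. Nr4a2 stood at 0.43 ± 0.10 (adjusted p = 0.111, its other probes at 0.07 and 0.09), in contrast to the value below 0 of Nr4a1, and Egr3, detected on 1 of 3 corn oil arrays, at -0.10 ± 0.23 (adjusted p = 0.851). The difference between Nr4a2 and Nr4a1 was not tested.

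Of 12 measured MAP kinase phosphatases and feedback inhibitors of ERK 0 were called (median 0.11), with 3 higher and 2 lower at an unadjusted p under 0.05. Among all genes 10.9% were higher and 6.73% lower at that unadjusted p, and 0.949% were called higher and 0.414% lower. Dusp6, the cytoplasmic ERK phosphatase, gave 10.9, 16.7 and 12.3 with monuron and 21.3, 17.0 and 19.8 with corn oil. All monuron arrays were below all corn oil arrays, as in 10.3% of all genes, though monuron replicate 2 came close to corn oil replicate 2. The log2 fold change of Dusp6 was -0.56 ± 0.18 (limma adjusted p = 0.204). Dusp5, a nuclear ERK phosphatase, stood at 0.80 ± 0.17 (adjusted p = 0.0987), and Errfi1, an inhibitor of the EGF receptor, at -0.96 ± 0.33 (adjusted p = 0.228). Of 28 kinases and nuclear factors upstream 0 rose and 1 fell, Map2k6, while Srf stood at -0.27 ± 0.09 (adjusted p = 0.222), with its other probes at 0.04 and -0.06. Of 7 factors of AU-rich mRNA decay 0 were called, and 0 had an unadjusted p under 0.05, Zfp36 standing at -0.49 ± 0.47 (adjusted p = 0.638).

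Btg2, Ier2 and Klf6, early genes of other families, were also not called. Btg2, an antiproliferative gene, stood at 0.42 ± 0.15 (adjusted p = 0.234), Ier2 at 0.18 ± 0.09 (adjusted p = 0.349) and Klf6 at -0.11 ± 0.14 (adjusted p = 0.722), the 6 probes of Klf6 lying between -0.17 and -0.11.

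The partners and targets of MYC gave 0 calls. Of 10 measured Myc partners 0 rose and 0 fell (median 0.03), with 3 higher and 0 lower at an unadjusted p under 0.05. Max, the obligate partner of MYC, stood at -0.28 ± 0.18 (adjusted p = 0.488). Of 35 Myc target genes 0 rose and 0 fell (median 0.05, with 23 above 0), with 5 higher and 1 lower at an unadjusted p under 0.05. Over all genes 55.3% were above 0, and 10.9% were higher and 6.73% lower at that unadjusted p. Hk2, among the 5 higher, had a log2 level of -6.21 on corn oil replicate 2, dimmer than any spot marked as well above background there. It therefore passed the detection filter through the monuron group alone, and counts among the 5 only for that reason. Odc1, the polyamine enzyme ornithine decarboxylase, gave 3.97, 6.85 and 5.97 on the monuron arrays and 3.19, 3.35 and 3.15 on the corn oil arrays. The groups did not overlap, and monuron replicate 1 was the nearest to corn oil. The difference was 1.69-fold (1.19 to 2.39, adjusted p = 0.155), and the other Odc1 probe gave a log2 difference of 0.68.

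**Figure D5:**
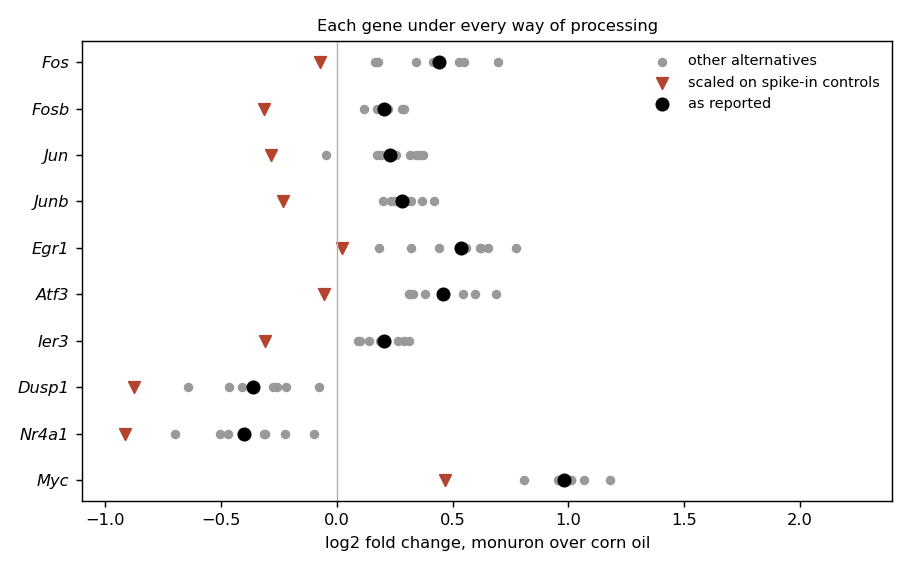
Log2 fold change of monuron over corn oil of each immediate early gene under each way of processing the arrays. Black points are the values reported, red triangles the scaling on spike-in controls, and grey points the other alternatives; under spike-in scaling all genes shift to the left and of the 10 genes Egr1 and Myc stay above 0.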

How the data were processed

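The authors deposited scanner output per array, whose intensity values are linear processed signals from Feature Extraction 10.7 (Agilent), as named in the submitters' processing notes. Their deposited value table gives a ratio, namely that signal over 1 constant per array (within 0.0497% for values of at least 0.1), with medians of 0.1114, 0.1106 and 0.110 for monuron and 0.1085, 0.111 and 0.1121 for corn oil replicates 1 to 3. It served as an alternative. Each array was scaled here to its 75th percentile over 61537 non-control probes and taken to log2. Spots marked as outliers were left out, and 0 were saturated. Accessions matched to RefSeq (GRCr8) named 45.8% of probes. The probe with the highest mean was tested for each gene among 41125 probes passing the filter, with limma 3.58.1 in R 4.3.3 (two-sided, Benjamini-Hochberg over all genes, 0.05). Folds and their intervals come from differences of log2 means, and a ± after a log2 value is its standard error. The array design cites the rn4 build. The functions were tested on simulated arrays.

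The members and gene lists were chosen with earlier results of these data known. The rule for named genes took every member, the called genes of each list (up to 4), 15 fixed relatives, and the 5 closest patterns (r over arrays, SD at least 0.3). Others were named after their values were seen, namely Maff, Dusp5, Errfi1, Hk2, Klf2, Cebpd, Nfkbia, Rgs1 and, among the markers, Lyz2, S100a8, S100a9, Cd4 and Cd8a. Signal over background and 3 arrays per group limit the precision. Replicate numbers were not treated as pairs of rats. Deviations from the group means correlated with r of -0.08, 0.11 and -0.17 for same-numbered arrays, and from -0.13 to 0.22 for the others. With so few arrays, these values cannot show whether the rats were paired.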

Additional observations from a re-analysis of the deposited data

How the results depend on the processing

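Over 18 alternatives, 166 of 179 values of the members kept their direction and side of the threshold. Scaling on spike-in controls shifted the median over all genes to -0.49 (log2), in place of 0.02, and called 67.7% of genes lower (20472 genes, with 289 higher). Under it Fos stood at -0.074, Fosb at -0.31, Jun at -0.28, Junb at -0.23, Atf3 at -0.054 and Ier3 at -0.31, while Dusp1 (-0.88) and Nr4a1 (-0.91) were called lower and Myc (0.47) higher, which makes 1 member higher and 2 lower. Myc was also the 1 member called with normexp and quantile normalization (adjusted p = 0.0318, with 1.49% of genes higher and 1.05% lower) and with trend and robust eBayes (adjusted p = 0.0475, with 1.43% higher and 0.913% lower). The cause was not tested. Leaving out 1 array at a time, the log2 fold change of Jun ran from -0.046 (without corn oil replicate 3) to 0.37, that of Fosb from 0.12 to 0.28, of Ier3 from 0.10 to 0.31, of Fos from 0.18 to 0.69, of Egr1 from 0.18 to 0.78, of Dusp1 from -0.64 to -0.08 and of Nr4a1 from -0.70 to -0.10. These fits called 0 to 1 members higher, the 1 being Myc, and 0 lower, with 0.0821% to 0.366% of genes higher and 0.0164% to 0.0891% lower and fewer arrays in the fit. Without a detection filter 0.147% of 45433 genes were higher and 0.0418% lower, and without scaling 0.202% were lower. With the replicate number as a block limma called 0 genes higher and 0 lower, with 4557 at an unadjusted p under 0.05, and Myc had an adjusted p = 0.207. Fos was not tested when detection on all 6 arrays was asked. Averaging or separating the probes of a gene, quantile normalization, flooring dim signals and the authors' table changed no member's call. Signal over background limits Fos, whose tested probe was marked as detected on 2 of the corn oil arrays.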
